A study of Mus musculus with 12 samples.

Results

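The genes followed here are the Wnt ligands, receptors and modulators, taken from the count table by name among protein-coding genes, which gave 63 genes of 54532 in the table. They comprise 19 Wnt ligands, 2 genes of Wnt secretion, 12 Frizzled receptors and co-receptors, 9 genes of the R-spondin arm, 12 secreted inhibitors, 4 intracellular feedback inhibitors, and beta-catenin with the 4 TCF/LEF factors. RNA was measured in bulk in male mice of the strain Tg(Pou5f1-EGFP)2Mnn, in which a Pou5f1 (OCT4) transgene marks germ cells with GFP. The 4 groups of 3 libraries are OCT4-GFP positive germ cells and OCT4-GFP negative somatic cells of the testis at postnatal day 1, each from animals given dexamethasone (dex), a synthetic agonist of the glucocorticoid receptor, or saline. Dams received by intraperitoneal injection 10 μg of dex per g of body weight at E17.5 and E18.5 (embryonic days), and the pups the same dose under the skin at postnatal day 0. Per the study, every replicate pooled testes of at least 2 litters that had been dosed independently, so p-values speak of the spread between such pools. GFP negative cells are a mixture, and in bulk RNA fewer cells of a type and less RNA per cell cannot be told apart.

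Wnt proteins are lipid-modified by Porcn, carried to the cell surface by Wls, and received by Frizzled receptors with the co-receptors Lrp5 and Lrp6. In the canonical branch, receptor engagement stops the Axin-containing complex from destroying beta-catenin (Ctnnb1), which then partners TCF/LEF factors on target genes, while R-spondins bound to Lgr receptors keep the ligases Znrf3 and Rnf43 from removing Frizzleds. Sfrp, Dkk, Wif1 and Notum proteins act outside the cell against Wnt proteins or their co-receptors, and in the gonad Wnt4 and Rspo1 are known for promoting ovarian development, with the testis pathway opposing them.

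Library totals lay between 18459692 and 25178477 counts. Levels are TMM-scaled CPM, counts set against the library total, given as mean ± SD of 3 libraries, and levels of different genes are compared only as CPM per kb of gene length. The detection floor, 3 counts for a gene with none, corresponds to 0.111 to 0.17 CPM depending on the library and reflects counting error only. The labels were checked against marker genes. The summed level of 14 germ cell genes was 4328 to 4447 CPM in saline germ and 24.3 to 32.0 CPM in saline somatic libraries, and that of 13 Sertoli cell genes was 436 to 502 and 7705 to 8361 CPM. The sum of 7 genes of mesonephric duct, rete and epididymal epithelium was higher in saline germ (271 to 313 CPM) than in saline somatic libraries (15.5 to 24.9 CPM), mostly from Epcam and Lhx1, which newborn germ cells are also known to express.

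Of the 63 members, 61 had more than 3 counts in at least 1 library of saline germ cells, 60 in dex germ, 55 in saline somatic and 53 in dex somatic cells. Dkk1, a Lrp5/6 antagonist, was at or under 3 counts in every library, with 2, 2, 0 and 0 counts in the 4 groups. Ctnnb1 was the member with the highest level per length in saline germ cells at 120.7 ± 3.25 CPM per kb, followed by Tcf7 at 106 ± 0.913 and Axin1 at 38.8 ± 1.35. In saline somatic cells Wnt6 led at 166.1 ± 5.61 CPM per kb, ahead of Ctnnb1 at 144.3 ± 16.7 and Tcf7 at 44.1 ± 1.55. The heatmap of the members shows ligands, receptors and inhibitors changing between the populations, against little visible change between treatments.

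**Figure D1:**
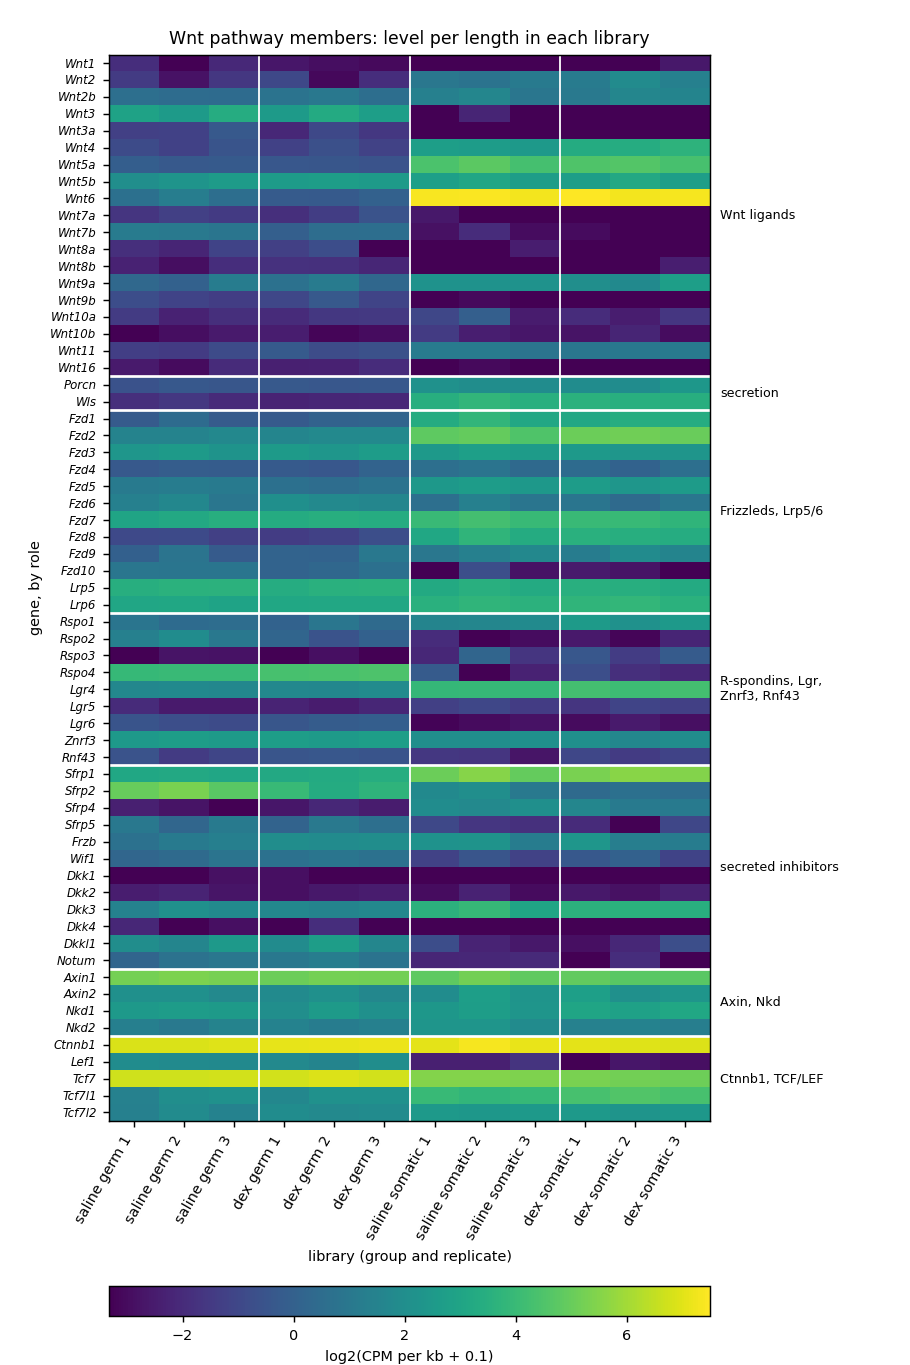
Level of each of the 63 members in the 12 libraries as log2(CPM per kb + 0.1), with genes grouped by role on the vertical axis and libraries by group on the horizontal axis. Wnt6 is among the brightest cells of the somatic libraries (166.1 CPM per kb in saline) and dim in germ libraries (1.72), while Ctnnb1 is bright in all 12.

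Germ against somatic cells. Most members were detected in libraries of both populations, at levels that differed. In saline germ libraries the peritubular and stromal, Sertoli and Leydig marker lists summed to 1.24%, 5.77% and 6.28% of their somatic level. The Sertoli sum includes Dmrt1, which was called higher in germ cells, beside 12 genes called lower (median log2 fold change of the list -6.26). The erythroid, macrophage, endothelial and coelomic lists stood at 2.75% to 33.6%. Pecam1 and Egfl7 of the endothelial and Krt19 of the coelomic list were called higher in germ cells, against 5 and 3 genes called lower. The part of somatic RNA in low germ values, such as those of Wls, Wnt5a, Wnt6 and Fzd8, was not tested. The ligands Wnt3, Wnt7b and Wnt9b, the R-spondins Rspo2 and Rspo4, and Lef1 were higher in germ cells, while Wnt6, Wnt5a, Wnt4, the secretion gene Wls and most Frizzleds were higher in somatic cells. In saline, 54 members were tested and 49 were called at an adjusted p at or under 0.05, 20 higher in germ cells and 29 lower. Over all genes tested the call rates were 76.5% in all, 39.8% higher and 36.7% lower, so a call here was common for any gene. The median log2 fold change, germ over somatic, was -0.75 over the members and 0.072 over all genes. In dex, which shares no library with the saline comparison, 47 of 54 were called, 19 higher and 28 lower (all genes: 76.3%, 40.5% and 35.7%). In both treatments 43 members were called, all 43 in the same direction, 18 higher and 25 lower in germ cells. Dkkl1, Fzd10, Lgr6, Notum, Rspo2, Rspo4, Sfrp5, Wnt3, Wnt3a, Wnt7a, Wnt7b and Wnt9b were too low for the filter among somatic libraries. They passed it here through the germ libraries, and Sfrp4 and, in dex, Rspo3 through the somatic ones. The direction of these members followed from the filter and adds no support. Of the 49 calls in saline 43 held in every alternative that tested the gene, where 15 of the 49 were too low in a library for the filter at 10 counts in every library. The calls that did not hold throughout were Axin1, Ctnnb1, Frzb, Lrp5, Rnf43 and Wnt5b. Scaling by library totals in place of TMM moved the median of all genes from 0.072 to 0.21 in saline and from 0.12 to 0.30 in dex, so differences of that size depend on the scaling.

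**Figure D2:**
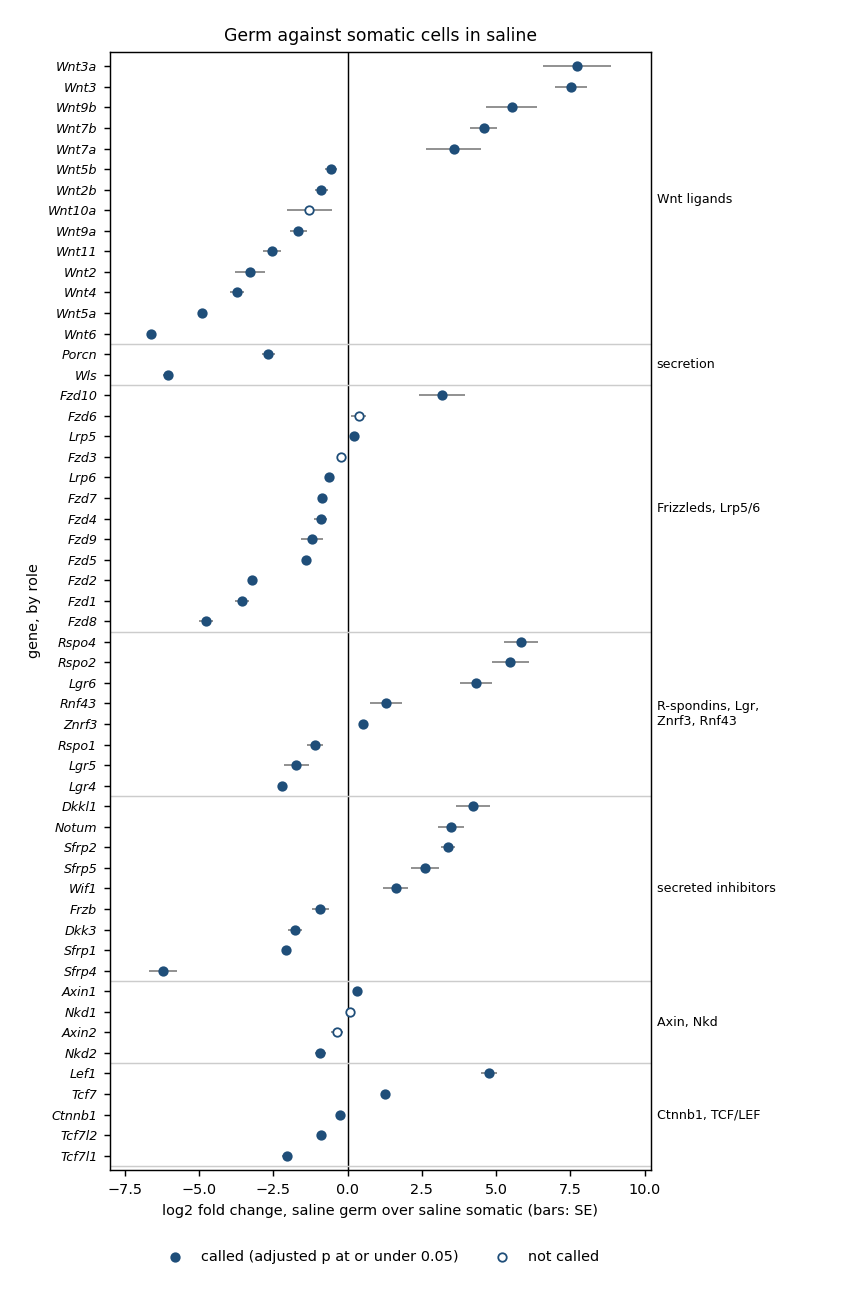
Log2 fold change of saline germ over saline somatic cells (horizontal axis) for the 54 members tested, grouped by role, with bars for the standard error and filled points for calls. Both secretion genes lie left of 0, and points of most other roles lie on both sides.

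Among the ligands, 5 were higher and 8 lower in germ cells in saline, and 1, Wnt10a, was not called. Over all genes tested 39.8% were called higher and 36.7% lower. The 5 higher ligands, Wnt3, Wnt3a, Wnt7a, Wnt7b and Wnt9b, passed the filter through the germ libraries alone. Their direction and p-values therefore add no support. Wnt3 (ENSMUSG00000000125, chr11:103774150-103817957, + strand), which signals through beta-catenin, stood at 22.7, 18.2 and 31.4 CPM in saline germ and at 0, 0.351 and 0 CPM in saline somatic libraries, and the groups did not overlap. All 8 of its counts in saline somatic cells came from replicate 2. In dex it stood at 22.6 ± 5.94 CPM in germ cells and had 0 counts in all 3 somatic libraries, which makes it at least 432-fold higher in germ cells against a floor of 3 counts over the group. Wnt3a likewise had 78 counts in saline germ cells and 0 in saline somatic cells, at least 26.0-fold higher. Wnt7b was 9.48 ± 1.0 against 0.380 ± 0.357 CPM (log2 fold change 4.58 ± 0.46 SE, edgeR adjusted p 1.917e-06).

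Wnt6 (ENSMUSG00000033227, chr1:74771892-74785322, + strand), a ligand of epithelial tissues, was the ligand with the highest level per length in somatic cells. It stood at 370.0, 372 and 350 CPM in saline somatic and at 3.24, 5.0 and 3.10 CPM in saline germ libraries (log2 fold change -6.60 ± 0.15 SE, edgeR adjusted p 5.812e-12). The somatic libraries were tightly grouped and far above every germ library. Wnt5a (ENSMUSG00000021994, chr14:28504750-28527448, + strand), a ligand known for beta-catenin-independent signalling, stood at 166, 210.5 and 154 CPM in saline somatic and at 6.52, 5.57 and 5.72 CPM in saline germ libraries (-4.89 ± 0.14 SE, adjusted p 3.235e-11). In dex it was 176, 190.0 and 159 CPM in somatic and 5.25, 5.10 and 4.47 CPM in germ libraries, with no overlap between the populations. The summed level of all ligands was 213.5 ± 11.3 CPM per kb in saline somatic and 22.7 ± 3.96 in saline germ cells. Wnt6 made up 77.8 ± 1.76% and Wnt5a 10.5 ± 1.28% of the somatic sum. In germ cells Wnt3 held 34.1 ± 3.83% and Wnt5b, a beta-catenin-independent ligand, 21.5 ± 2.63%.

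**Figure D3:**
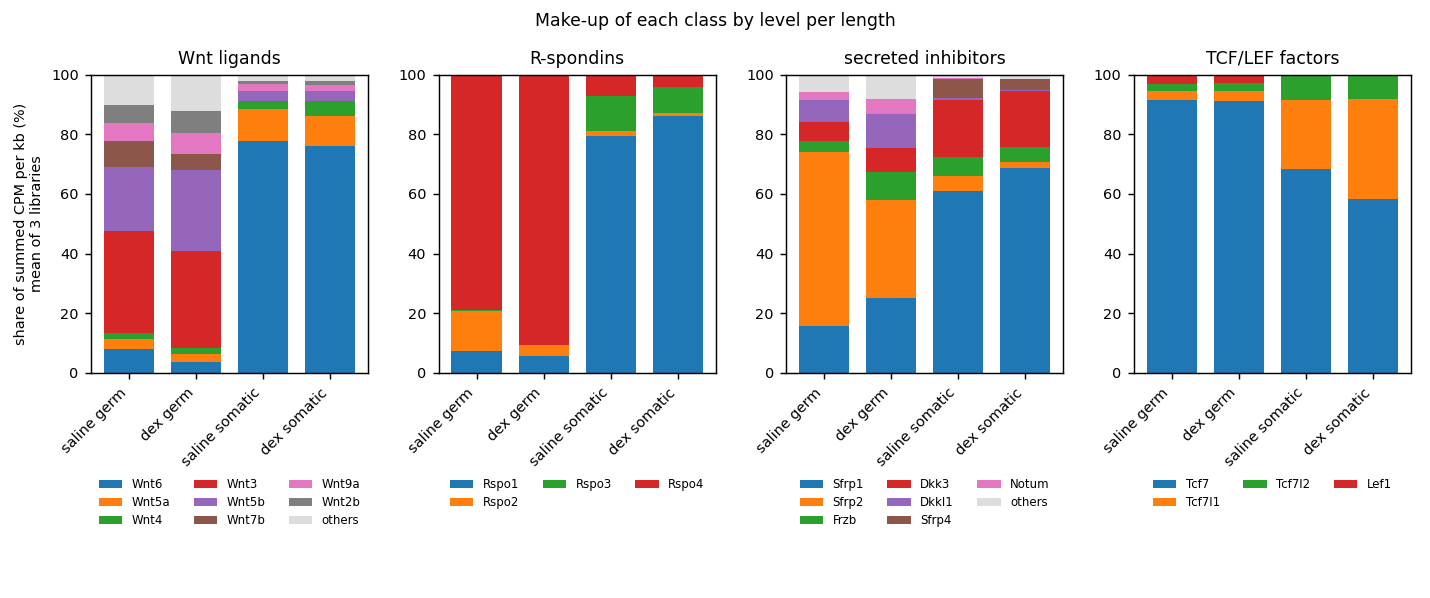
Share of the summed CPM per kb (vertical axis, %, mean of 3 libraries) that each gene holds within its class in the 4 groups, for ligands, R-spondins, secreted inhibitors and TCF/LEF factors. Wnt6 fills 77.8% of the ligand bar in saline somatic cells, and Sfrp2 shrinks from 58.5% to 32.8% of the secreted inhibitors between saline and dex germ cells.

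Both genes of Wnt secretion were lower in germ cells. Wls (ENSMUSG00000028173, chr3:159839672-159938664, + strand), the Wnt cargo receptor, was 1.62 ± 0.429 CPM in saline germ and 106 ± 12.7 CPM in saline somatic cells (-6.04 ± 0.18 SE, adjusted p 3.278e-11). Porcn, the acyltransferase that lipidates Wnt proteins, was 1.88 ± 0.211 against 11.9 ± 0.892 CPM (-2.67 ± 0.23 SE). The germ libraries, which held transcripts of several ligands, had Wls at 1.53% of the somatic level.

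Of the Frizzleds and co-receptors, 8 were lower in germ cells, 2 higher and 2 not called in saline. Over all genes tested 36.7% were called lower and 39.8% higher. The largest difference was Fzd8, at 1.30 ± 0.222 CPM in saline germ and 35.5 ± 8.04 CPM in saline somatic cells (-4.77 ± 0.23 SE). Fzd2 was 10.6 ± 0.910 against 99.4 ± 13.8 CPM and Fzd1 3.90 ± 1.27 against 45.5 ± 10.98 CPM. Fzd10 went the other way, at 5.75 ± 0.138 CPM in saline germ and 0.605 ± 0.924 CPM in saline somatic cells, where replicate 2 held 1.67 CPM and the other libraries at most 0.146. Fzd10 passed the filter through the germ libraries alone, so its direction adds no support. By level per length, Fzd7 held 34.3 ± 5.16% of the Frizzled sum in saline germ cells and Fzd2 32.7 ± 2.93% in saline somatic cells. Of the co-receptors, Lrp6 was 111 ± 5.98 against 170 ± 14.4 CPM, and Lrp5 was 114 ± 6.69 against 97.2 ± 9.48 CPM with overlapping libraries (adjusted p 0.03944, and 0.4317 in dex).

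In the R-spondin arm, ligands and receptors divided between the populations. Rspo4 (ENSMUSG00000032852, chr2:151842927-151874668, + strand), a secreted enhancer of Wnt signalling, was 37.3 ± 1.32 CPM in saline germ and 0.673 ± 0.963 CPM in saline somatic cells (5.84 ± 0.57 SE, adjusted p 1.379e-06). Rspo2 was 13.8 ± 4.67 against 0.319 ± 0.433 CPM (5.47 ± 0.62 SE, adjusted p 5.912e-06). In saline somatic cells replicate 1 held most of both, with 1.78 CPM of Rspo4 and 0.812 CPM of Rspo2, and replicate 2 held none. Lgr6, an R-spondin receptor, was also higher in germ cells, with 3.58 ± 0.523 against 0.173 ± 0.1204 CPM. Rspo4, Rspo2 and Lgr6 passed the filter through the germ libraries alone, so their direction and p-values add no support. Lgr4 (ENSMUSG00000050199, chr2:109917647-110014257, + strand), the most abundant R-spondin receptor here per length in both populations, was 18.3, 19.8 and 18.48 CPM in saline germ and 85.6, 87.9 and 84.9 CPM in saline somatic libraries (-2.19 ± 0.10 SE). Rspo1 (ENSMUSG00000028871, chr4:124986430-125009099, + strand) stood at 3.42, 2.45 and 2.67 CPM in saline germ and at 5.53, 5.80 and 6.75 CPM in saline somatic libraries (-1.08 ± 0.27 SE, adjusted p 0.00304), without overlap. Rspo4 held 79.0 ± 3.54% of the R-spondin sum per length in saline germ cells, and Rspo1 79.5 ± 9.87% in saline somatic cells. The ligases Znrf3 and Rnf43 were both higher in germ cells, with Znrf3 at 46.6 ± 3.24 against 32.1 ± 1.202 CPM.

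All 9 secreted inhibitors tested in saline were called, 5 higher and 4 lower in germ cells, where 76.5% of all genes tested were called. Dkkl1, Notum and Sfrp5 passed the filter through the germ libraries alone and Sfrp4 through the somatic ones. The direction of these members adds no support. Sfrp2 (ENSMUSG00000027996, chr3:83766321-83774316, + strand), a secreted Frizzled-related protein, was 70.7 ± 15.03 CPM in saline germ and 6.71 ± 2.22 CPM in saline somatic cells (3.39 ± 0.23 SE, adjusted p 5.572e-08). Its relative Sfrp1 was 37.9 ± 2.15 against 160 ± 34.2 CPM, and Sfrp4 was 0.201 ± 0.197 against 15.6 ± 1.65 CPM (-6.21 ± 0.46 SE). Dkkl1, a Dickkopf-like gene known from spermatogenic cells, was 6.45 ± 2.08 against 0.345 ± 0.363 CPM. Sfrp2 held 58.5 ± 6.80% of the summed inhibitor level in saline germ cells and Sfrp1 61.0 ± 3.66% in saline somatic cells.

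Beta-catenin and the Axins differed less between the populations. Ctnnb1 (ENSMUSG00000006932, chr9:120929216-120960507, + strand) stood at 617, 617 and 646 CPM in saline germ and at 679, 846 and 723 CPM in saline somatic libraries (-0.26 ± 0.09 SE, adjusted p 0.01777). In dex the germ libraries were the higher ones, with 703, 721 and 746 CPM in germ and 677, 656 and 620 CPM in somatic libraries (0.15 ± 0.07 SE, adjusted p 0.08752, not called). Germ and somatic libraries did not overlap in either treatment. Axin1 (ENSMUSG00000024182, chr17:26138688-26195811, + strand), the scaffold of the destruction complex, stood at 145, 155 and 146 CPM in saline germ and at 108, 138 and 110 CPM in saline somatic libraries (0.32 ± 0.10 SE, adjusted p 0.01132). Axin2 (ENSMUSG00000000142, chr11:108920349-108950783, + strand), a widely used target gene of beta-catenin, stood at 23.1, 23.0 and 18.4 CPM in saline germ and at 20.3, 36.7 and 25.8 CPM in saline somatic libraries. The Axin2 ranges overlapped (-0.36 ± 0.20 SE, adjusted p 0.1137), and in dex the value was -0.54 ± 0.19 SE (adjusted p 0.02188), again with overlapping libraries.

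The TCF/LEF factors divided. Tcf7 (ENSMUSG00000000782, chr11:52252371-52283014, - strand) stood at 278, 276 and 281 CPM in saline germ and at 119, 117 and 111 CPM in saline somatic libraries (1.26 ± 0.07 SE, adjusted p 1.054e-08). Lef1 (ENSMUSG00000027985, chr3:131110471-131224356, + strand) stood at 32.6, 30.8 and 29.6 CPM in saline germ and at 0.812, 0.834 and 1.80 CPM in saline somatic libraries (4.75 ± 0.26 SE, adjusted p 7.485e-09). Every germ library was above every somatic library for both genes. Tcf7l1, which is known as a repressor at Wnt target genes, and Tcf7l2 were lower in germ cells (-2.03 ± 0.17 SE and -0.89 ± 0.15 SE). Of the summed TCF/LEF level per length, Tcf7 held 91.3 ± 0.926% in saline germ and 68.5 ± 1.44% in saline somatic cells.

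Dex against saline in germ cells. In germ cells dex was followed by lower Sfrp2 and Rspo2, and by smaller rises of Frzb and Rspo4. Of 55 members tested, 4 were called (2 higher, 2 lower), against 1.25% of all genes tested (0.739% higher, 0.507% lower). At an unadjusted p under 0.05 there were 12 members (21.8%, against 14.7% of all genes). DESeq2, run on every gene with at least 1 count, called 6 members, the same 4 with Fzd5 and Wnt6. Over all genes it called 675, against 231 in edgeR. With that filter edgeR also called Wnt6 (adjusted p 0.0329), and 767 genes in all. Dex and saline libraries did not overlap for 16 members, 29.1% of those tested against 20.0% of all genes. The median log2 fold change, dex over saline, was 0.078 over the members and -0.0027 over all genes.

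Sfrp2 stood at 68.5, 86.7 and 56.9 CPM in saline germ libraries and at 33.1, 21.7 and 28.1 CPM in dex germ libraries. Every dex library was below every saline library, and the lowest saline value stood well above the highest dex value. The log2 fold change was -1.37 ± 0.16 SE (edgeR adjusted p 0.000837), and it was called in all 13 alternatives tried, at -1.52 to -1.19. Of its exon bases, 16.1% overlap the antisense gene Gm26771, which stood at 0.0491 CPM in saline and 0.151 CPM in dex germ cells.

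Rspo2 (ENSMUSG00000051920, chr15:43020794-43170826, - strand) stood at 12.9, 18.9 and 9.72 CPM in saline and at 5.30, 2.96 and 4.79 CPM in dex germ libraries. As with Sfrp2, saline replicate 2 was the highest library and dex replicate 2 the lowest, and the groups did not overlap. The log2 fold change was -1.68 ± 0.26 SE (edgeR adjusted p 0.00679), called in 12 of 13 alternatives and lost when all 12 libraries shared 1 fit (adjusted p 0.166). The share of Rspo2 in the R-spondin sum per length was 13.5 ± 3.96% in saline and 3.66 ± 1.10% in dex germ cells.

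Frzb (ENSMUSG00000027004, chr2:80411970-80447625, - strand), also called Sfrp3 and a relative of Sfrp2, stood at 4.95, 6.72 and 8.001 CPM in saline and at 12.3, 11.68 and 12.4 CPM in dex germ libraries. The dex libraries were close together and all above the saline libraries (0.88 ± 0.19 SE, edgeR adjusted p 0.0413). Rspo4 stood at 35.8, 37.8 and 38.2 CPM in saline and at 48.4, 49.7 and 52.2 CPM in dex germ libraries, again without overlap (0.42 ± 0.10 SE, adjusted p 0.0487). Both calls lay near the threshold. For Frzb, leaving out dex replicate 1, 2 or 3 gave an adjusted p of 0.101, 0.0547 or 0.111, and leaving out saline replicate 1 or 2 gave 0.18 or 0.133. For Rspo4, leaving out any 1 of the 6 libraries gave 0.0685 to 0.223. In 1 fit of all 12 libraries the adjusted p was 0.253 for Frzb and 0.764 for Rspo4. With the replicate block, whose numbers are not known to pair dex with saline samples, it was 0.0885 and 0.123.

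The 12 members grouped here as secreted inhibitors, which include Dkkl1 and Dkk3, summed to 55.8 ± 6.10 CPM per kb in saline and 39.1 ± 0.686 in dex germ cells. Within that sum the share of Sfrp2 went from 58.5 ± 6.80% to 32.8 ± 6.44% and that of Frzb from 3.66 ± 0.979% to 9.59 ± 0.352%. The R-spondin sum was 19.9 ± 0.897 CPM per kb in saline and 23.3 ± 0.913 in dex germ cells.

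In edgeR no ligand was called among 16 tested, 3 had an unadjusted p under 0.05, and DESeq2 called 1. These 3 were Wnt6, Wnt7b and Wnt11. Wnt7b was 9.48 ± 1.0 CPM in saline and 5.87 ± 1.42 CPM in dex (-0.70 ± 0.21 SE, adjusted p 0.1213), and Wnt11 was 1.41 ± 0.435 and 2.41 ± 0.563 CPM (0.76 ± 0.35 SE, adjusted p 0.328). Of 12 Frizzleds and co-receptors tested, 3 had an unadjusted p under 0.05, and the clearest was Fzd5 at 14.8 ± 0.679 CPM in saline and 10.24 ± 0.986 CPM in dex (-0.53 ± 0.15 SE, adjusted p 0.1028, called by DESeq2 and not by edgeR). Ctnnb1 was 617, 617 and 646 CPM in saline and 703, 721 and 746 CPM in dex, a difference of 0.20 ± 0.06 SE that did not pass (adjusted p 0.1244) although the libraries did not overlap. Axin2 was 19.4, 23.5 and 17.2 CPM in dex germ libraries, overlapping saline (-0.11 ± 0.15 SE, 95% interval -0.43 to 0.21). Lef1 was 28.6, 25.0 and 34.0 CPM in dex germ libraries, around the saline values (-0.09 ± 0.13 SE, 95% interval -0.36 to 0.18).

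**Figure D4:**
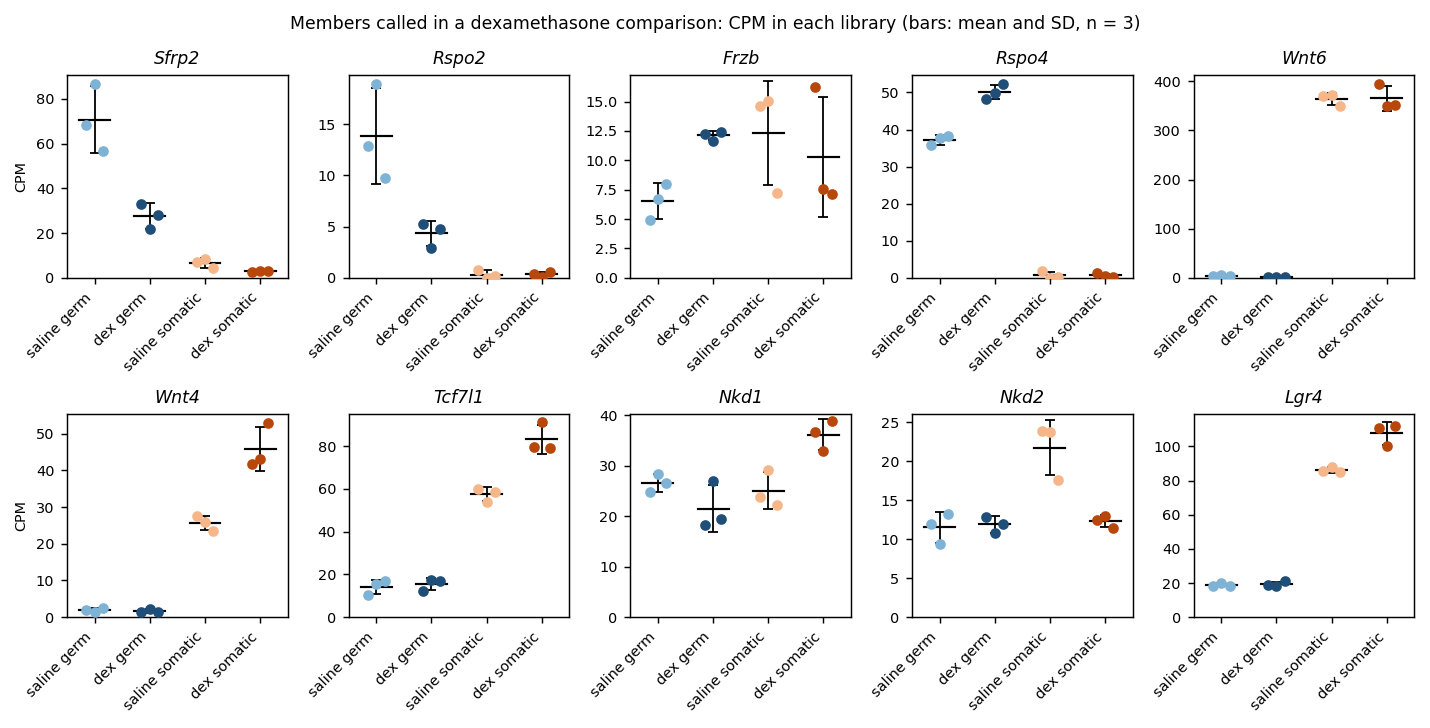
CPM in each library (points) with mean and SD (bars, n = 3) for the 9 members called in a dex comparison and Wnt6, which was called in the difference between the populations. Sfrp2 and Rspo2 are lower in all 3 dex germ libraries than in any saline germ library, and Wnt4 is higher in all 3 dex somatic libraries than in any saline somatic library.

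Promoter sequence, 250 bases before to 50 bases after the start in RefSeq (GRCm38.p6), was at hand for 42 of the members (52 promoters), among them 8 of the 9 called in a dex comparison. Windows were searched on both strands for TCF/LEF words (CTTTGAA or CTTTGAT, and likewise CTTTGTA or CTTTGTT), the glucocorticoid receptor half-site AGAACA, the full site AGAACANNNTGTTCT, which contains the half-site, the GC box GGGCGG and the word TATAAA. Of the 8 called members, 4 held a GC box and none held any of the other words. Over all 52 member promoters the GC box occurred in 36 (69.2%), against 35.7% of 32851 mouse promoters. TCF/LEF words occurred in 7 (13.5% against 16.9%), the half-site in 9 (17.3% against 19.0%) and TATAAA in 9 (17.3% against 13.6%). The promoters of the germ members Sfrp2, which fell, and Rspo4, which rose, and of the somatic member Wnt4, which rose, are given as examples of the windows searched, with GC boxes in capitals (CCGCCC is the box read on the other strand). The Sfrp2 window (chr3:83766071-83766370, + strand) holds none, the Rspo4 window (chr2:151842677-151842976, + strand) holds 2 and the Wnt4 window (chr4:137277385-137277684, + strand) holds 8, some of them overlapping.
Sfrp2: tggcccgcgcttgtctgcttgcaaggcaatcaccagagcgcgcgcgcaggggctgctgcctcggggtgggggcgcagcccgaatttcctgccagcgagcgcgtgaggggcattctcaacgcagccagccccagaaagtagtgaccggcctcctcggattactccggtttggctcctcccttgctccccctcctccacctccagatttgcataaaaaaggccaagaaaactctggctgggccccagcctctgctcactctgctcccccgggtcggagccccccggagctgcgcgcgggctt
Rspo4: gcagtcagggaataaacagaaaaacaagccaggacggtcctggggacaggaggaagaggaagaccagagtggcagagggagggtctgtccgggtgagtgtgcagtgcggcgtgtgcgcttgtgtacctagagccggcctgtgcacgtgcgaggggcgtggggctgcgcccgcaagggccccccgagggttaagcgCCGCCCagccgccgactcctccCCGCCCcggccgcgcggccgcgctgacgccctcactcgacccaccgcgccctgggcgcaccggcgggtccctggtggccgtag
Wnt4: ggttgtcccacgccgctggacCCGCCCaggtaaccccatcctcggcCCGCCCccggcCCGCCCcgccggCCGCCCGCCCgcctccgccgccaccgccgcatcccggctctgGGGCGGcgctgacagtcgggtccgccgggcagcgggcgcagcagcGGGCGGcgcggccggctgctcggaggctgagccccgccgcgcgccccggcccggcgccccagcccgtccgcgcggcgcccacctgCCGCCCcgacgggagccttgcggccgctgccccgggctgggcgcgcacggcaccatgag

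Dex against saline in somatic cells. In somatic cells dex was followed by higher Wnt4, Tcf7l1, Nkd1 and Lgr4, and by lower Nkd2. Of 43 members tested, 5 were called (4 higher, 1 lower), against 3.91% of all genes tested (2.74% higher, 1.17% lower). At an unadjusted p under 0.05 there were 13 (30.2%, against 16.1% of all genes). DESeq2, again on every gene with at least 1 count, called 8 members, the same 5 with Fzd2, Rspo1 and Sfrp2. Over all genes it called 905, against 655 in edgeR. The groups did not overlap for 15 members, 34.9% of those tested against 21.3% of all genes. The median log2 fold change was 0.050 over the members and -0.0066 over all genes. Scaled by library totals, 53.5% of all calls were higher, against 70.1% with TMM.

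Wnt4 (ENSMUSG00000036856, chr4:137277489-137299726, + strand) stood at 27.6, 25.9 and 23.6 CPM in saline and at 41.7, 43.1 and 52.9 CPM in dex somatic libraries. All 3 dex libraries were above all 3 saline libraries (0.87 ± 0.13 SE, 95% interval 0.59 to 1.14, edgeR adjusted p 0.000826), and the call held in all 13 alternatives. Its share of the somatic ligand sum per length was 2.87 ± 0.161% in saline and 5.0 ± 0.796% in dex. In germ cells Wnt4 was at 1.93, 1.35 and 2.52 CPM in saline and 1.38, 2.18 and 1.40 CPM in dex libraries, which overlapped.

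Tcf7l1 (ENSMUSG00000055799, chr6:72626378-72789254, - strand) stood at 60.2, 54.0 and 58.6 CPM in saline and at 79.7, 91.2 and 79.1 CPM in dex somatic libraries, without overlap (0.56 ± 0.10 SE, edgeR adjusted p 0.00519). The call held in 12 of 13 alternatives and was lost when all 12 libraries shared 1 fit (adjusted p 0.0815). Of its exon bases 4.56% overlap the antisense gene Gm15401, which stood at 0.776 CPM in saline and 1.78 CPM in dex somatic cells. Tcf7 was 119, 117 and 111 CPM in saline and 106, 94.5 and 90.5 CPM in dex somatic libraries, also without overlap but not called (-0.23 ± 0.08 SE, adjusted p 0.1754). By level per length Tcf7l1 held 22.8 ± 1.11% of the somatic TCF/LEF sum in saline and 33.6 ± 2.82% in dex.

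The naked cuticle genes Nkd1 and Nkd2, which bind Dishevelled and restrain Wnt signals, were called in opposite directions. Nkd2 (ENSMUSG00000021567, chr13:73818534-73847631, - strand) stood at 23.8, 23.7 and 17.6 CPM in saline and at 12.5, 13.0 and 11.4 CPM in dex somatic libraries (-0.79 ± 0.16 SE, edgeR adjusted p 0.00955). Nkd1 (ENSMUSG00000031661, chr8:88521354-88594884, + strand) stood at 23.8, 29.1 and 22.2 CPM in saline and at 36.7, 32.9 and 38.8 CPM in dex (0.56 ± 0.13 SE, adjusted p 0.0193). Neither gene's groups overlapped. Without saline replicate 1 the adjusted p of Nkd2 was 0.0597, and that of Nkd1 was 0.056 or 0.0949 when dex replicate 1 or 3 was left out and 0.0887 or 0.106 when saline replicate 1 or 3 was. In 1 fit of all 12 libraries that of Nkd1 was 0.0831.

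Lgr4 stood at 85.6, 87.9 and 84.9 CPM in saline and at 111, 100.1 and 112 CPM in dex somatic libraries, without overlap (0.35 ± 0.08 SE, edgeR adjusted p 0.0248). The call was lost when dex replicate 1 or 3 was left out (adjusted p 0.0945 and 0.12) and when saline replicate 1, 2 or 3 was (0.0981, 0.0652 and 0.0893), with library totals (0.0699) and in 1 fit of all 12 libraries (0.0723). Its ligand gene Rspo1 stood at 5.53, 5.80 and 6.75 CPM in saline and at 11.3, 8.42 and 10.99 CPM in dex, without overlap but just over the threshold (0.79 ± 0.22 SE, adjusted p 0.0563).

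Sfrp2, lower after dex in germ cells, stood at 7.25, 8.61 and 4.28 CPM in saline and at 2.66, 3.19 and 2.92 CPM in dex somatic libraries. The dex libraries all lay below the saline libraries, but the value did not pass (-1.16 ± 0.31 SE, edgeR adjusted p 0.0522, called in 6 of 13 alternatives). Somatic Sfrp2 was 9.49% of the germ level in saline, and the germ marker list in somatic libraries summed to 0.638% of its germ level. Fzd2 was 99.4 ± 13.8 CPM in saline and 123 ± 6.25 CPM in dex (0.34 ± 0.09 SE, adjusted p 0.0614). Wnt6 and Wnt5a were near their saline levels, with Wnt6 at 394, 350 and 352 CPM in dex (0.03 ± 0.08 SE, 95% interval -0.13 to 0.20) and Wnt5a at a difference of 0.02 ± 0.10 SE. Axin2 was 37.2, 22.8 and 27.2 CPM in dex somatic libraries, overlapping saline (0.11 ± 0.19 SE, 95% interval -0.30 to 0.51). Ctnnb1 was 677, 656 and 620 CPM in dex, below the saline libraries without passing (-0.17 ± 0.08 SE, adjusted p 0.3123), and Lef1 was 0, 0.507 and 0.302 CPM in dex (adjusted p 0.2842).

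Markers of other cell types also differed between saline and dex somatic libraries. The 13 peritubular and stromal genes summed to 11390 to 15750 CPM in saline and 17350 to 20700 CPM in dex somatic libraries, with all 13 positive and 6 called higher. The 8 macrophage genes summed to 56.3 to 95.6 CPM in saline and 24.8 to 35.8 CPM in dex, with 3 called lower, while the 13 Sertoli genes summed to 7705 to 8361 and 7376 to 8393 CPM. The erythroid sum was 255.8 to 393.9 and 85.3 to 298.8 CPM (Hbb-bt and Hbb-bs called lower), and the Leydig sum 120.9 to 205.0 and 87.3 to 178.8 CPM (Star called lower). The endothelial sum was 262.0 to 293.5 and 253.7 to 329.4 CPM (Tek called lower). The coelomic and mesothelial sum was 49.0 to 69.9 and 64.8 to 84.8 CPM, with none called. The part of these differences in the somatic values of Wnt4, Tcf7l1, Nkd1, Nkd2 and Lgr4 was not tested.

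**Figure D5:**
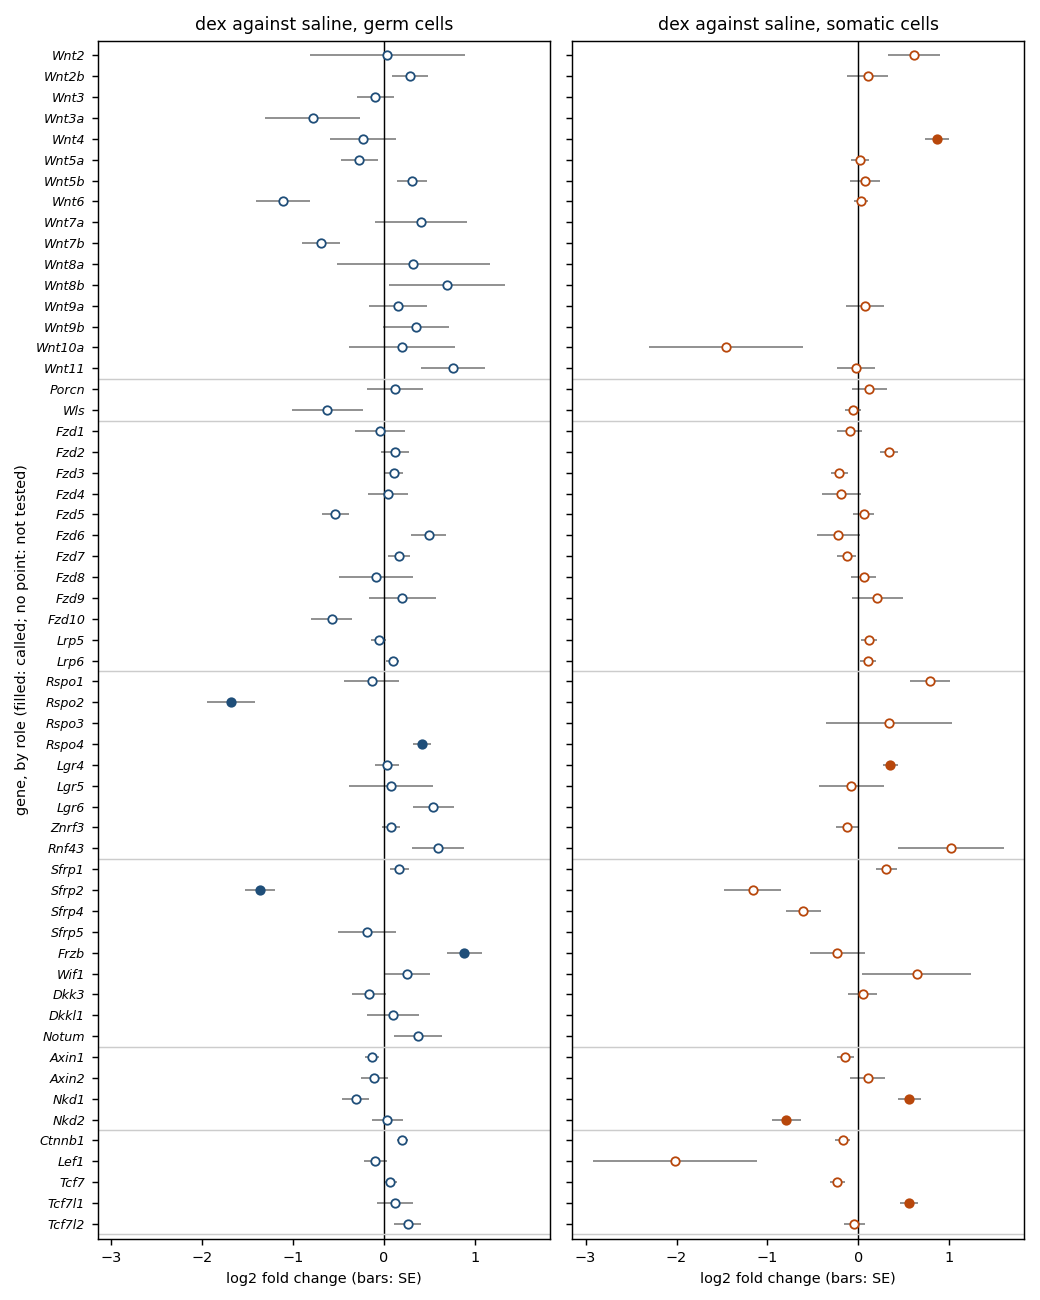
Log2 fold change of dex over saline (horizontal axis) with standard error for every member tested in germ cells (left) and somatic cells (right), grouped by role, with filled points for calls. Rspo2 (-1.68) and Sfrp2 (-1.37) stand out on the left among the germ cell values, and Wnt4 (0.87) and Nkd2 (-0.79) are the called somatic members farthest from 0.

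Difference between the populations. Whether dex acted differently in germ and somatic cells was tested directly for 57 members in 1 fit of all 12 libraries, and 1 was called, Wnt6, lower in germ cells, against 0.827% of all genes (0.414% lower). At an unadjusted p under 0.05 there were 15 members (26.3%, against 13.3% of all genes). DESeq2, on every gene with at least 1 count, called 6 members, Wnt6 with Ctnnb1, Lef1, Nkd1, Nkd2 and Wnt4. Over all genes it called 620, against 170 in edgeR. Wnt6 stood at 3.24, 5.0 and 3.10 CPM in saline and at 1.66, 1.59 and 2.00 CPM in dex germ libraries, without overlap (-1.12 ± 0.30 SE, adjusted p 0.0846 in germ cells alone). With the somatic change of 0.03, the difference was -1.11 ± 0.21 SE (edgeR adjusted p 0.0179), called in 16 of 18 alternatives and lost without dex germ replicate 1 (0.0522) or 2 (0.0631).

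The germ level of Wnt6 was 1.04% of its somatic level in saline and 0.479% in dex. For comparison, the summed Sertoli list in germ cells was 5.77% of its somatic level in saline and 5.04% in dex, the Leydig list 6.28% and 5.27%, and the peritubular and stromal list 1.24% and 0.918%. The Sertoli sum includes Dmrt1, called higher in germ cells in both treatments, beside 12 genes called lower. The median log2 fold change of that list, germ over somatic, was -6.26 in saline and -6.76 in dex. The endothelial list was at 27.6% and 26.8%, the coelomic and mesothelial list at 33.6% and 29.2%, the erythroid list at 2.75% and 3.24%, and the macrophage list at 15.8% and 52.5%, the last with a lower somatic sum in dex. Pecam1 and Egfl7 (endothelial) and Krt19 (coelomic) were called higher in germ cells in both treatments. Mrc1 (macrophage) was called higher in germ cells in dex. The other called genes of these lists were lower in germ cells. In germ libraries the Sertoli sum was 436 to 502 CPM in saline and 365 to 451 CPM in dex, and all 12 Sertoli genes tested had a negative log2 fold change (median -0.50, Inha called lower). The Leydig sum was 9.24 to 11.69 CPM in saline and 4.70 to 8.62 CPM in dex germ libraries, with Hsd3b6 at 0 in both. The peritubular and stromal sum was 141 to 196 CPM in saline and 167 to 180.2 CPM in dex, with 10 of 12 genes tested positive (median 0.27), and the macrophage sum was 9.33 to 13.5 and 14.6 to 17.2 CPM. The endothelial sum was 71.85 to 81.05 and 72.2 to 86.7 CPM, the coelomic and mesothelial sum 15.99 to 27.0 and 15.49 to 28.5 CPM, and the erythroid sum 7.52 to 9.06 and 4.33 to 6.88 CPM. The part of somatic RNA in the germ libraries in the Wnt6 result was not tested.

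Ctnnb1, Nkd1, Nkd2 and Wnt4 had differences of 0.41 ± 0.11, -0.83 ± 0.22, 0.86 ± 0.25 and -1.05 ± 0.31 (log2, SE), with edgeR adjusted p of 0.1073, 0.08599, 0.1189 and 0.1322. None of these passed in the edgeR fit. Sfrp2 had -0.16 ± 0.33 SE (95% interval -0.86 to 0.54), so its germ and somatic changes could not be told apart at this precision. Rspo2 and Rspo4, nearly absent from somatic cells, had wide intervals of -3.94 to 0.37 and -1.26 to 2.23.

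Other genes of the pathway. Beyond the 63 members, lists of the destruction complex with Dishevelled, nuclear partners of beta-catenin, alternative Wnt receptors with planar polarity genes, other extracellular modulators, and textbook beta-catenin targets were followed. In germ cells 1 of 75 tested was called with dex (1.33%, near the 1.25% of all genes), Ccnd1 (cyclin D1), at 161 ± 1.78 CPM in saline and 106 ± 8.72 CPM in dex (-0.61 ± 0.08 SE, edgeR adjusted p 0.00136). At an unadjusted p under 0.05 there were 16 (21.3%, against 14.7% of all genes), and DESeq2 called 7 (675 genes in all). The 18 target genes tested had a median of -0.19, with 13 negative, beside -0.0027 over all genes, of which 49.6% were positive. The 17 alternative receptor and planar polarity genes had a median of 0.23, with 12 positive and 8 at an unadjusted p under 0.05. Medians of the other lists were -0.067 to -0.016. In somatic cells the 13 targets tested had a median of -0.049, with 8 negative. The 17 alternative receptor and planar polarity genes had a somatic median of 0.14, also with 12 positive, and 5 at an unadjusted p under 0.05. In somatic cells 3 of 67 were called, all higher (4.48%, near the 3.91% of all genes). These were the glypicans Gpc3 (0.45 ± 0.10 SE, adjusted p 0.0208) and Gpc6 (0.83 ± 0.15 SE, adjusted p 0.00433), cell-surface proteoglycans that can bind Wnt proteins, and the target Ephb2 (0.45 ± 0.12 SE, adjusted p 0.0441). The unadjusted count was 11 (16.4%, against 16.1% of all genes) and DESeq2 called 6 (905 genes in all). In the difference between populations edgeR called 0 of 76 (12 at an unadjusted p under 0.05, 15.8% against 13.3% of all genes). DESeq2 called 5 (620 genes in all).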

How the data were processed

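PolyA RNA of sorted cells was sequenced, and per the labels and the submitters' processing notes the authors aligned reads to mm10 (GRCm38) with HISAT2 2.0.5 and counted them per gene with featureCounts 1.5.0-p3. The annotation release and the strand setting are not given in the sources used here, so overlapping antisense genes cannot be told apart from their partners. The deposited values used are these raw counts and the gene length that the authors gave in bases. FPKM values and the authors' own DESeq2 1.20.0 comparison tables (fold changes and p-values) were not used.

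Members were taken by gene symbol, and the members, the gene lists and the tests were chosen with earlier results of these data known. Counts were tested in edgeR 4.0.16 (R 4.3.3, limma 3.58.1) by the quasi-likelihood test on the 6 libraries of a comparison, or on all 12 for the difference between populations, after filterByExpr (minimum count 10) and TMM scaling. P-values were adjusted by Benjamini-Hochberg over all genes tested, and a call is an adjusted p at or under 0.05. Standard errors were derived from the log2 fold change and its F value, and 95% intervals use the test's degrees of freedom. CPM levels use TMM factors over all 12 libraries. All scripts that test across genes were checked on simulated counts. Alternatives were DESeq2 1.42.0 on every gene with at least 1 count, other scalings and filters, a replicate block, 1 fit of all libraries and leaving out each library. Tables and figures were made with Python 3.11.15, pandas 2.3.3 and matplotlib 3.10.9.

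Library values are given for members called in a dex comparison or in the difference, for the 3 members with the highest level per length in each saline group, and for Ctnnb1, Axin2, Lef1, Wnt4, Wnt5a, Wnt6, Rspo1 and Lgr4. In germ against somatic cells, members of each role with the largest called difference each way were named, and others chosen after their values were seen. Genes of the pathway lists were named where called with dex.

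The comparisons of dex with saline and of germ with somatic cells share libraries. Deviations of same-numbered replicates correlated weakly at most (r between -0.0879 and 0.0444). For germ and somatic libraries in saline, same numbers gave 0.0374, 0.0444 and 0.0367, and different numbers -0.0284 to -0.00878. Replicate numbers were not used as pairs. With a replicate block, germ against somatic cells had 50 members called in saline and 45 in dex. No pair of replicates agreed within sampling noise (chi-square per degree of freedom 6.11 to 20.3). Totals of 18459692 to 25178477 counts put the floor of 3 counts at 0.111 to 0.17 CPM.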

Additional observations from a re-analysis of the deposited data

Results flagged for a closer look

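The change of Wnt6 with dex differed between germ and somatic cells by -1.11 on the log2 scale in the edgeR test of the difference itself (adjusted p 0.0179). Its germ cell count over 3 libraries was 235 in saline and 122 in dex, and the somatic level was 364 ± 12.3 and 365 ± 24.9 CPM. No other member passed that test. In germ cells alone the edgeR comparison of dex with saline did not call Wnt6 (adjusted p 0.08455). The part of somatic RNA in its germ counts was not tested.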

How the results depend on the processing

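With dex in germ cells, 4 members and 231 genes in all were called. The numbers were 2 and 65 with the replicate block, 2 and 142 in 1 fit of all 12 libraries, and 2 to 3 and 49 to 265 when 1 library was left out. For all genes DESeq2 gave 675 and keeping every gene with at least 1 count gave 767. The replicate numbers are not known to pair dex with saline samples, so the block is given only as a setting.

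In somatic cells 5 members and 655 genes were called. DESeq2 called 8 members and 905 genes, and edgeR on every gene with at least 1 count gave 10 members and 1061 genes. Leaving out 1 library gave 2 to 6 members and 354 to 547 genes.

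For the difference between populations, with 1 member and 170 genes called, library totals gave 2 members (Ctnnb1 and Wnt6), DESeq2 6 members and 620 genes, the filter at 1 count 6 members and 706 genes, and at least 10 counts in every library 2 members and 262 genes. The block gave 104 genes, and leaving out 1 library 0 to 1 members and 79 to 172 genes.

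Germ against somatic cells kept 47 to 50 members called in saline and 45 to 48 in dex when 1 library was left out. The share of higher calls among all genes went from 59.3% to 69.3% in germ cells, from 70.1% to 53.5% in somatic cells and from 50.0% to 67.0% for the difference when library totals replaced TMM.

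The values that changed sign were all of members not called in that comparison, and did so mostly when 1 library was left out. In germ cells such fits gave Nkd2 -0.088 (without saline replicate 2) to 0.15, with -0.024 without dex replicate 1, Lgr4 -0.031 (without dex replicate 3) to 0.075, Tcf7l1 -0.064 (without saline replicate 1) to 0.27 and Wnt4 -0.48 to 0.0050 (without saline replicate 3). Somatic Wnt6 was -0.016 (without dex replicate 1) to 0.063, and -0.026 with library totals. For the difference, Rspo4 was -1.95 (without saline somatic replicate 1) to 1.26 and Sfrp2 -0.38 to 0.083 (without saline somatic replicate 3). The cause of these changes was not tested. Members with few counts in a group, such as Rspo2 and Rspo4 in somatic cells, had wide intervals.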
